A study of Mus musculus with 18 samples.

Results

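CD11b+ CD103+ double-positive dendritic cells (DCs) and CD103+ single-positive DCs of the intestinal lymph node were compared across all genes. The comparison used the 3 libraries labelled Double+ and the 3 labelled CD103+ from lymph node, which are 6 of the 18 libraries of the series. It covered the 17074 genes that passed a filter on low counts. All 18 libraries were RNA-seq of DCs of C57BL/6J mice with the genotype CD11a KO, and the other 12 held CD11b+ DCs of lymph node and the same 3 subsets of the small intestinal lamina propria. No infection, treatment, age or pooling of animals is given for these libraries. No wild-type library was analysed here, so every difference is between subsets that share the knockout. The gate in the labels (CD64-, MHCIIhigh, CD11c+) was written for lamina propria DCs, and the gate of the lymph node DCs is not stated. Nothing in the labels ties the replicates to separate animals, so p-values measure the spread between these libraries.

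As background, classical DCs fall into the lineages cDC1 and cDC2. cDC1 depend on Irf8 and Batf3, carry Xcr1 and Clec9a and are known for cross-presentation to CD8+ T cells. cDC2 carry Sirpa and CD11b and rely more on Irf4 and Klf4. In the intestine CD103 (Itgae) is found on cDC1 and on a cDC2 population that also carries CD11b, and both migrate in lymph to the draining node under the control of the chemokine receptor Ccr7. CD103+ DCs of the intestine are known for making retinoic acid, which imprints gut homing on T cells.

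The labels were first checked on the genes behind them. Itgal, which encodes CD11a and lies on chromosome 7 from 127296260 to 127335138 of GRCm38, was read at 12.7, 6.45 and 6.84 CPM (counts scaled to library size) in CD103+ DCs and at 15.4, 9.56 and 13.1 CPM in double-positive DCs. Reads of the knocked-out gene were therefore present in every library, and counts per gene cannot show whether the transcript is intact. Itgam, which encodes CD11b, stood at 0.166, 0.886 and 0.263 CPM in CD103+ and at 4.88, 5.76 and 4.85 CPM in double-positive DCs, with no overlap. Itgae, which encodes CD103, stood at 40.0, 39.1 and 27.0 CPM in CD103+ and at 48.1, 49.1 and 41.1 CPM in double-positive DCs, against 5.57 to 6.65 CPM in lymph node CD11b+ DCs. The transcripts of the sort markers thus followed the labels. Itgax, which encodes CD11c, was 2.53-fold higher in double-positive DCs.

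Double-positive replicate 3 stood apart in sex-linked genes. It held 52.2 CPM of the Y-linked Ddx3y together with 26.1 CPM of Xist. In the other 5 libraries Ddx3y did not exceed 0.351 CPM, and Xist lay between 35.1 and 61.8 CPM. Results below are given with this library, and list counts that moved without it are given beside them. Total counts of the 6 libraries lay between 23574292 and 31805879, and replicates of a group differed by far more than sampling noise (chi-square per gene between 16.0 and 32.5).

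Double-positive and CD103+ DCs of the lymph node differed in 1115 genes, 6.53% of those tested. Of these, 801 were higher in double-positive DCs (4.69% of the genes tested) and 314 were lower (1.84%). A gene was called at an adjusted p under 0.01 (Benjamini-Hochberg) in the quasi-likelihood test of edgeR and a fold change over 2. Without double-positive replicate 3 the numbers were 667 higher and 249 lower. The rises were larger than the falls. Of the 801 genes that rose, 400 (49.9%) rose over 4-fold, while of the 314 that fell, 51 (16.2%) fell over 4-fold. Restricted to called genes whose higher group reached 10 CPM, the shares were 35.4% and 9.47%. The median log2 fold change over all genes tested was 0.01.

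Many genes of the cDC2 lineage were among the rises. Of 22 cDC2 markers, 16 were higher in double-positive DCs and 0 were lower by the same test (1 at an unadjusted p under 0.05, and 0 by DESeq2), with a median log2 fold change of 2.01. Without double-positive replicate 3, 13 were higher. With no limit on fold change, 17 were higher and 1 lower at an adjusted p under 0.01. The lower gene was Clec12a (log2 fold change -0.87, adjusted p = 0.0089). The list was chosen with earlier results of these data known. It holds Itgam, which encodes the CD11b by which the labels tell the subsets apart. Sirpa, the inhibitory receptor for CD47 (chromosome 2, 129592835 to 129632228), stood at 15.1, 14.2 and 15.3 CPM in CD103+ and at 165, 139 and 170 CPM in double-positive DCs. The groups lay far apart, with a 10.6-fold rise (log2 fold change 3.41, SE 0.16, adjusted p = 1.0e-09). Zeb2, a repressor that opposes the cDC1 fate, went from 5.43, 5.06 and 5.26 CPM to 55.4, 49.6 and 63.5 CPM (log2 fold change 3.42, SE 0.28). Csf1r, the receptor for Csf1, went from 4.85, 2.57 and 2.50 CPM to 38.3, 38.9 and 55.2 CPM (3.73, SE 0.30).

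Other members differed less. Klf4 had a log2 fold change of 1.30 (SE 0.22, adjusted p = 3.0e-04). Irf4, the factor most tied to intestinal cDC2, had a log2 fold change of 0.65 (SE 0.16) and did not reach 2-fold, with 32.0, 23.0 and 24.9 CPM in CD103+ and 34.2, 41.9 and 49.4 CPM in double-positive DCs. Cd209a, a C-type lectin, was at 8.03 to 11.9 CPM in double-positive DCs against 1.93 to 5.10 CPM in CD103+ DCs, and its call was lost without any of 4 of the 6 libraries (adjusted p from 0.013 to 0.037). These were double-positive replicates 1 and 3 and CD103+ replicates 1 and 3. Near-identical copies of Cd209a and of the Clec4a genes could share reads, so their counts are uncertain.

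Lymph node CD11b+ DCs, labelled for CD11b alone, give the scale of these levels. Replicate 3 of these DCs held 58 CPM of Ddx3y with 15.4 CPM of Xist, while replicates 1 and 2 held at most 0.213 CPM of Ddx3y. Their Sirpa stood at 696 ± 163 CPM (SD, n = 3) against 158 ± 17.0 in double-positive and 14.9 ± 0.602 in CD103+ DCs. For Csf1r the means in that order were 322, 44.2 and 3.31 CPM, and for Itgam 20.8, 5.16 and 0.438 CPM. The double-positive libraries lay between the other subsets for all 3 genes. For Zeb2 they came nearer to CD11b+ DCs, with means of 70.4, 56.2 and 5.25 CPM.

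**Figure D1:**
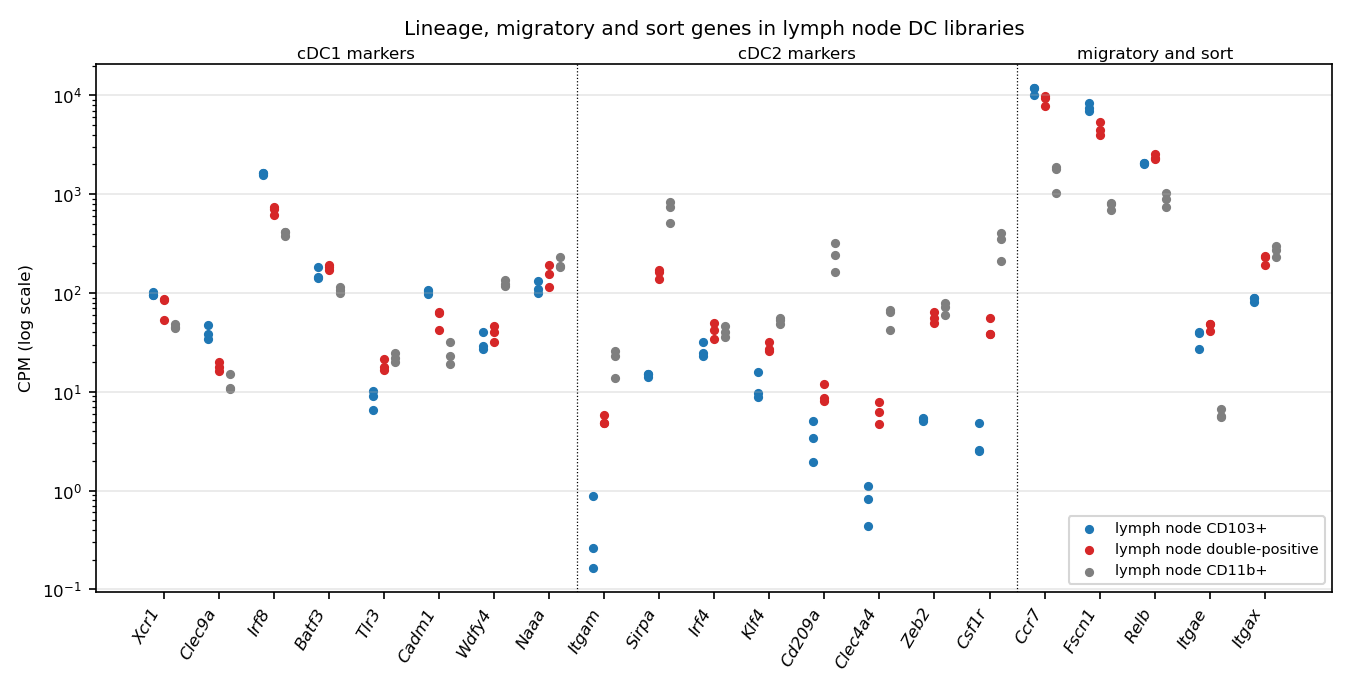
CPM on a log scale for cDC1 markers, cDC2 markers, migratory genes and sort genes, with a point for each of the 3 libraries of lymph node CD103+ (blue), double-positive (red) and CD11b+ DCs (grey). Sirpa, Zeb2 and Csf1r of the double-positive libraries lie well above those of CD103+ DCs, while Xcr1 and Batf3 lie close together in both.

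Markers of macrophages and monocytes moved with the cDC2 genes. Of 12 such markers 8 were higher and 0 lower (1 lower at an unadjusted p under 0.05, and 0 by DESeq2), with a median log2 fold change of 2.79. Their summed level was 178 to 184 CPM in the CD103+ libraries, 1277 to 1428 CPM in the double-positive and 3000 to 4685 CPM in the CD11b+ libraries. Lyz2, which encodes lysozyme, went from 113, 99.1 and 119 CPM to 1017, 1123 and 997 CPM and Apoe, an apolipoprotein, from 22.7, 22.4 and 25.9 CPM to 159, 194 and 197 CPM. Lyz2 made up most of the sum and is also read in other myeloid cells. Fcgr1, which encodes the CD64 that macrophages carry, had 0 counts in the CD103+ libraries and 31 in the double-positive libraries together, at least 9.69-fold higher against a floor of 3 counts over the group. The part of such cells in the cDC2 result was not tested, and more cells of a type cannot be told apart here from more RNA per cell.

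The cDC1 markers went both ways. Of 22, 2 were lower and 3 higher in double-positive DCs, and the median log2 fold change was -0.02. Without double-positive replicate 3 the numbers were 2 and 1, and without CD103+ replicate 3 they were 4 and 2. With no limit on fold change, 6 were lower and 3 higher at an adjusted p under 0.01. Irf8, the lineage factor of cDC1 (chromosome 8, 120736358 to 120756694), stood at 1635, 1656 and 1554 CPM in CD103+ and at 618, 749 and 701 CPM in double-positive DCs. That is a 2.34-fold difference without overlap (log2 fold change -1.23, SE 0.09, adjusted p = 5.4e-08). Clec9a, the receptor for dead-cell actin, stood at 34.0, 38.8 and 47.7 CPM and at 16.2, 17.9 and 20.0 CPM (-1.16, SE 0.22).

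Xcr1, the receptor that defines cDC1, was close in the compared subsets. It stood at 95.2, 103 and 94.9 CPM in CD103+ and at 53.2, 85.7 and 87.6 CPM in double-positive DCs (log2 fold change -0.37, SE 0.14, adjusted p = 0.067). Batf3 had a log2 fold change of 0.23 (SE 0.10), and Cadm1 of -0.87 (SE 0.20), under 2-fold. The 3 members that were higher were Tlr3, the sensor of double-stranded RNA, Tlr11, a sensor of microbial profilin, and Sept3. The call of Tlr3 lay at the limit, since its log2 fold change of 1.10 fell below 1 without double-positive replicate 3 (0.99) and without CD103+ replicate 3 (0.94). Sept3 was lost without double-positive replicate 2 (adjusted p = 0.019) or 3 (adjusted p = 0.025) and in the fit of the 6 libraries alone (adjusted p = 0.029). Tlr11 kept its call in each of these settings (1.31, SE 0.15), at 48.0, 46.3 and 32.1 CPM against 97.7, 90.6 and 125 CPM.

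Of the 12 largest rises under the naming rule, 5 were surface receptors of myeloid cells. Lilra5, an activating immunoglobulin-like receptor, had 0.332, 0.253 and 0.789 CPM in CD103+ and 27.7, 19.4 and 25.3 CPM in double-positive DCs, a 52.5-fold difference (log2 fold change 5.71, SE 0.85, adjusted p = 1.0e-04). Cd33, a sialic acid-binding lectin, rose from at most 0.801 CPM to 9.81, 13.4 and 12.5 CPM (4.50, SE 0.32). Cd300a, an inhibitory receptor, rose from 1.78, 2.99 and 2.81 CPM to 35.9, 43.2 and 34.9 CPM (3.91, SE 0.22). Cd209b, a lectin that binds microbial sugars, and Tarm1, an activating receptor, had log2 fold changes of 4.01 and 3.94.

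Others among the 12 largest rises encode proteins of other kinds. Stra6l, a receptor for retinol-binding protein, rose 19.7-fold, from 6.31, 5.61 and 5.00 CPM to 103, 103 and 129 CPM (log2 fold change 4.30, SE 0.23). Grpr, the receptor for gastrin-releasing peptide, rose from 1.53, 1.01 and 1.18 CPM to 25.2, 24.4 and 20.1 CPM. Rgl1 and Arhgef10l, exchange factors for small GTPases, Ear2, a ribonuclease with close copies, and Tgm1, a transglutaminase, had log2 fold changes of 4.20, 4.19, 4.25 and 3.99. The antibody segment Ighv8-12 had a log2 fold change of 5.54 (SE 1.44), and its call was lost when any of the 6 libraries was left out (adjusted p from 0.012 to 0.042).

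The 12 largest falls held secreted and matrix proteins. Thbs4, a thrombospondin, stood at 60.7, 54.1 and 54.0 CPM in CD103+ and at 7.93, 8.83 and 13.4 CPM in double-positive DCs, a 5.60-fold difference (log2 fold change -2.48, SE 0.40). Tgfb2 encodes a transforming growth factor beta. It stood at 20.7, 17.2 and 21.9 CPM and at 4.41, 4.40 and 3.80 CPM (-2.24, SE 0.46), and its adjusted p was 0.011 without double-positive replicate 3. Fgfbp3, which binds fibroblast growth factors, and the proteoglycan Spock1 had log2 fold changes of -2.33 and -2.99, and the call of Spock1 was lost without double-positive replicate 1 or 3 (adjusted p = 0.010 in each). The most abundant of the 12 was Txndc17, a thioredoxin-like protein, at 1951, 2150 and 2410 CPM and at 410, 541 and 445 CPM, a 4.66-fold difference (-2.22, SE 0.12, adjusted p = 2.6e-09).

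The remaining falls were inside the cell or at its membrane. Fbxo2, a subunit of a ubiquitin ligase that recognises glycoproteins, had the largest fall among named genes with at least 10 CPM, from 20.1, 31.6 and 26.7 CPM to 1.56, 4.75 and 2.52 CPM (log2 fold change -3.14, SE 0.51). Cpne8, a calcium-binding copine, and Arhgap42, a regulator of small GTPases, had log2 fold changes of -2.74 and -2.31. Eva1a, Ctnnal1, Arhgap8 and Sh3gl3 had log2 fold changes of -2.78, -2.64, -2.57 and -2.51, and each of these 4 calls was lost without at least 1 library, with an adjusted p of up to 0.042. For Eva1a this was double-positive replicate 1 (adjusted p = 0.011). For the other 3 it was 4 or 5 of the libraries, from both groups.

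**Figure D2:**
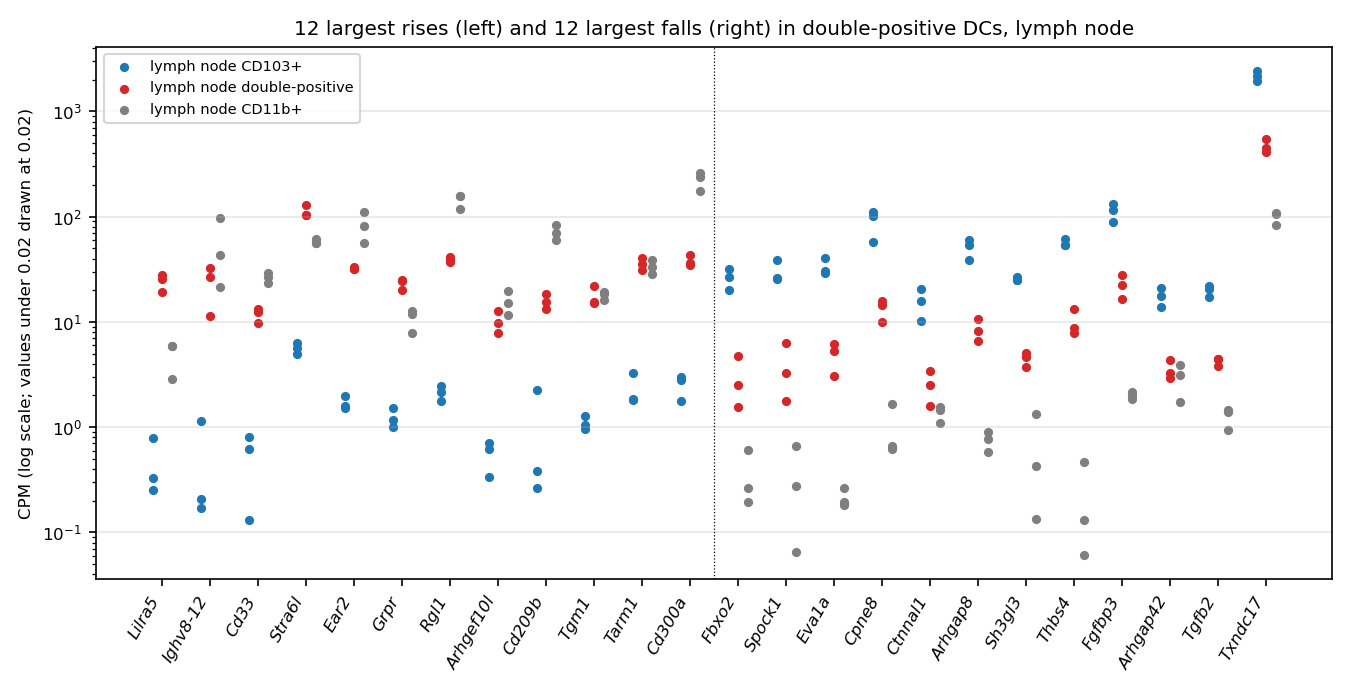
CPM on a log scale for the 12 largest rises (left) and 12 largest falls (right), with a point per library of lymph node CD103+ (blue), double-positive (red) and CD11b+ DCs (grey). Double-positive libraries of Thbs4 and Txndc17 lie between the other subsets, and those of Lilra5, Stra6l and Grpr lie above both.

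Levels in CD11b+ DCs set the falls in order. Thbs4 stood at 0.219 ± 0.217 CPM (SD, n = 3) in CD11b+, 10.1 ± 2.96 in double-positive and 56.3 ± 3.85 in CD103+ DCs. Txndc17 stood at 99.4, 465 and 2170 CPM in that order. Double-positive DCs were thus between the other subsets for both, and so they were for Irf8 (405, 689 and 1615 CPM). The comparison of double-positive with CD11b+ DCs shares the double-positive libraries, and 16.7% of genes were called in it, 6.92% higher and 9.82% lower in double-positive DCs. In it the log2 fold change was 5.52 for Thbs4 and 2.23 for Txndc17.

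Some genes were highest in double-positive DCs. Rnase6, an antimicrobial ribonuclease and the gene with the smallest p (adjusted p = 1.8e-11), stood at 95.2, 114 and 108 CPM in CD103+ and at 552, 594 and 562 CPM in double-positive DCs (log2 fold change 2.43, SE 0.08). CD11b+ DCs had 267, 230 and 229 CPM, and the log2 fold change of double-positive against CD11b+ DCs was 1.23 (adjusted p = 3.4e-09). The nucleolar GTPase Gnl2 had a log2 fold change of 1.62 (SE 0.08) against CD103+ and of 1.20 against CD11b+ DCs. Asrgl1, an asparaginase, had 2.24 (SE 0.11) and 1.27. Lilra5 had 5.71 and 2.31, but the second missed the threshold (adjusted p = 0.012).

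Other genes among the smallest p were at least as high in CD11b+ DCs, or within 2-fold of them. Fcer1g, the signalling chain of Fc receptors, had a log2 fold change of 2.59 (SE 0.11) against CD103+ and of -1.45 against CD11b+ DCs. Gpr183, which guides DCs by oxysterols, rose from 48.3, 50.8 and 42.0 CPM to 290, 322 and 361 CPM (2.79, SE 0.14) and differed from CD11b+ DCs by -0.17 (adjusted p = 0.30). St3gal4, a sialyltransferase, had 2.08 and -0.11. Jaml, an adhesion molecule, and Sulf2, an extracellular sulfatase, had 2.00 and 2.77 against CD103+ DCs, and 0.48 and 0.47 against CD11b+ DCs.

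Genes of the MHC class II pathway rose together. The pathway loads peptides for CD4+ T cells, with Ciita as the master regulator of its genes, H2-DM as the peptide editor, H2-O as its inhibitor and Cd74 as the invariant chain. Of 13 members 9 were higher in double-positive DCs and 0 were lower by edgeR (0 at an unadjusted p under 0.05, and 0 by DESeq2), with a median log2 fold change of 1.31. The 9 were also called without double-positive replicate 3.

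H2-Ab1, a chain of the class II molecule (chromosome 17, 34257689 to 34269419), stood at 3622, 3517 and 3607 CPM in CD103+ and at 13102, 13007 and 12794 CPM in double-positive DCs. The 3.62-fold difference was many times the spread between replicates (log2 fold change 1.86, SE 0.10, adjusted p = 2.9e-09). H2-Aa and H2-Eb1, which encode other class II chains, had log2 fold changes of 1.58 and 1.75. Ciita (chromosome 16, 10480059 to 10528418) stood at 61.2, 39.3 and 38.4 CPM and at 249, 190 and 278 CPM, a 5.16-fold difference (2.37, SE 0.18). Cd74 rose 2.15-fold. H2-DMb2 rose 5.50-fold, from 98.8, 85.5 and 98.8 CPM to 516, 506 and 537 CPM, although it and H2-DMb1 are alike enough that reads could be split between them.

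The other 4 members did not pass. H2-Ob had a log2 fold change of 0.40 (SE 0.14, adjusted p = 0.045). March1, which removes class II from the surface, had 0.79 (SE 0.20), and the lysosomal enzymes Ctss and Ifi30 had 0.31 and 0.15. CD103+ DCs were the low group, since the summed level of the list was 25997 to 27406 CPM in their libraries, 65745 to 67826 CPM in double-positive and 53476 to 69100 CPM in CD11b+ libraries. The gate given for lamina propria DCs selects MHCIIhigh cells, and whether it was used in lymph node is not stated.

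The promoters of class II genes are shown because Ciita acts through a shared promoter module, of which the Y box binds the factor NF-Y. In RefSeq promoters of GRCm38.p6 (250 bases before to 50 after the start), the 9 class II list genes with an entry were searched on both strands for the letters TGATTGG. The 6 genes that hold it are printed 5′ to 3′ on the gene's strand, as 100 bases each, with these letters in capitals.
H2-Aa: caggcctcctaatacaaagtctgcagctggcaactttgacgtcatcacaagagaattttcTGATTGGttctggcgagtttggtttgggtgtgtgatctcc
H2-Eb1: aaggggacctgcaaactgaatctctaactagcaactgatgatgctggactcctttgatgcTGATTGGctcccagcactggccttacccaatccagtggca
H2-DMb1: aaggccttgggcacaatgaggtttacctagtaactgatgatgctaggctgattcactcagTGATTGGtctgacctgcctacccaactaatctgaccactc
H2-DMb2: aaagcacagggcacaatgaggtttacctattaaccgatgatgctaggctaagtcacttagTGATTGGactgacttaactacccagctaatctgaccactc
H2-Oa: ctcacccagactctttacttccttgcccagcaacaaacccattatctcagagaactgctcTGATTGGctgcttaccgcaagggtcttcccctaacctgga
H2-Ob: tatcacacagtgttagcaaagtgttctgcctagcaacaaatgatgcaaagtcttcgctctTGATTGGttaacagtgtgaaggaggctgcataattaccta

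These stretches lie at chr17:34287834-34287933 on the minus strand for H2-Aa, and on the plus strand at chr17:34305746-34305845 for H2-Eb1, chr17:34153068-34153167 for H2-DMb1, chr17:34145097-34145196 for H2-DMb2, chr17:34092274-34092373 for H2-Oa and chr17:34238786-34238885 for H2-Ob. The match began between 45 and 92 bases before the start that the RefSeq entry uses, and read in the same direction in all 6. Of 32851 promoter entries 2568 (7.82%) hold the letters on either strand. So do 7 of the 17 entries of the MHC class I list (41.2%), 1 of them in the gene's direction. The 5 first genes printed were higher in double-positive DCs and H2-Ob was not called. H2-DMa, which was called (log2 fold change 1.31), has no match in its entries. These (chr17:34122582-34122881 and chr17:34125268-34125567) do not cover its annotated start at 34119541, where the letters were not searched for. The entry of H2-DMb2 (chr17:34144999-34145298) also lies away from its annotated start at 34143307. The annotated starts of H2-DMb1 (34153072) and H2-Oa (34092340) lie inside the stretches printed, so the distances from these starts differ.

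**Figure D3:**
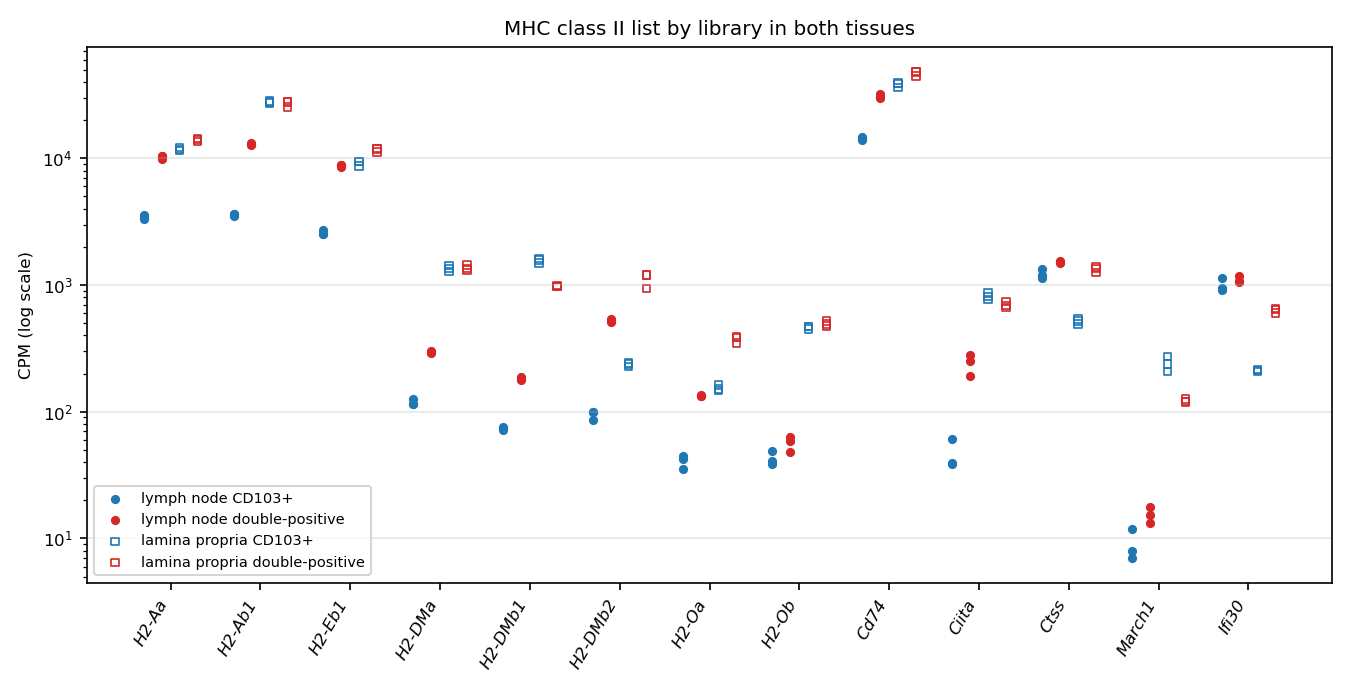
CPM on a log scale for the 13 genes of the MHC class II list, with a point per library of CD103+ (blue) and double-positive DCs (red) in lymph node (filled circles) and lamina propria (open squares). Lymph node CD103+ libraries lie lowest for H2-Aa, H2-Ab1, H2-Eb1, Cd74 and Ciita, and the lamina propria subsets lie close together there.

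Genes of MHC class I, which presents to CD8+ T cells, leaned the other way by less than 2-fold. Of 18 members 0 were called in either direction by edgeR, 17 had a log2 fold change below 0, and the median was -0.42. At an unadjusted p under 0.05, 14 were lower and 0 higher, and DESeq2 called 0. Without the limit on fold change, 8 were lower at an adjusted p under 0.01. B2m, the light chain of class I, stood at 14821, 14482 and 18022 CPM in CD103+ and at 10999, 11157 and 11688 CPM in double-positive DCs, without overlap (log2 fold change -0.48, SE 0.11). Tapbp, which helps load peptides, had -0.55 (SE 0.08). H2-K1 and H2-D1 had -0.59 and -0.53 and share near-identical sequence.

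Retinoic acid genes changed in both directions. Of 16 tested, 4 were higher and 1 was lower, with a median log2 fold change of 0.18. Aldh1a2, the enzyme that makes retinoic acid in intestinal DCs (chromosome 9, 71215789 to 71296243), stood at 2375, 2319 and 1955 CPM in CD103+ and at 847, 813 and 1044 CPM in double-positive DCs. It was thus 2.46-fold lower in double-positive DCs (log2 fold change -1.30, SE 0.19, adjusted p = 9.2e-05), and both lay above the 105 ± 34.9 CPM (SD, n = 3) of CD11b+ DCs. Dhrs3, which turns retinal back into retinol, went the other way, from 38.4, 41.5 and 38.4 CPM to 156, 169 and 169 CPM (2.06, SE 0.11). CD11b+ DCs had 54.5 CPM of it on average. The receptors Rarb, Rarg and Rxra rose by log2 fold changes of 2.45, 1.70 and 1.69, with Rarb at no more than 3.63 CPM and the call of Rarg lost without CD103+ replicate 3 (adjusted p = 0.010).

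Of 20 cytokines tested, 5 were higher and 4 were lower, with a median log2 fold change of 0.36. Without double-positive replicate 3 these were 4 and 3. The rises held members of the interleukin 1 family. Il1b stood at 38.8, 29.6 and 36.6 CPM in CD103+ and at 289, 309 and 455 CPM in double-positive DCs, a 10.0-fold difference (log2 fold change 3.33, SE 0.35). Its receptor antagonist Il1rn rose 11.9-fold, from 4.27, 2.74 and 3.99 CPM to 43.7, 41.2 and 45.8 CPM. Il18 and Il6 had log2 fold changes of 1.70 and 2.27. Il1a was under 4 CPM in every CD103+ and double-positive mean and lost its call without double-positive replicate 3 (adjusted p = 0.011) or CD103+ replicate 1 (adjusted p = 0.016) or 2 (adjusted p = 0.011).

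The 4 cytokines that were lower were Il12b, Il27, Csf1 and Tgfb2. Il12b, which encodes p40, stood at 362, 453 and 390 CPM in CD103+ and at 94.6, 157 and 204 CPM in double-positive DCs (log2 fold change -1.40, SE 0.29). Its adjusted p was 0.013 without double-positive replicate 1. Il27, a subunit of a related cytokine, stood at 30.7, 42.7 and 41.6 CPM and at 10.1, 16.4 and 13.7 CPM (-1.51, SE 0.27). Csf1, the ligand of the Csf1r that rose, was 3.96-fold lower (-1.98, SE 0.35). Il12a and Il23a, which encode partners of p40, had log2 fold changes of -0.84 (SE 0.84) and 0.67 (SE 1.27) and were not called. Il15 and Ebi3 had log2 fold changes of -0.69 and -0.50, under 2-fold.

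Chemokine receptors leaned towards double-positive DCs. Of 19, 8 were higher and 0 lower by edgeR (1 at an unadjusted p under 0.05, and 0 by DESeq2), with a median log2 fold change of 1.17. Without double-positive replicate 3, 7 were higher. The 8 include Gpr183, which was in the list although it responds to oxysterols and is not a chemokine receptor. Cx3cr1, the fractalkine receptor, stood at 1.04, 0.675 and 0.263 CPM in CD103+ and 6.45, 4.15 and 5.94 CPM in double-positive DCs. Ccr6, which responds to Ccl20, rose from 17.4, 15.1 and 11.9 CPM to 45.0, 45.4 and 42.2 CPM (log2 fold change 1.58, SE 0.23). Cxcr6 and Ccrl2 had 1.81 and 1.31. The call of Cxcr4 was lost without double-positive replicate 2 (adjusted p = 0.012), CD103+ replicate 1 (0.011) or CD103+ replicate 2 (0.010), that of Ccr2 without 5 of the 6 libraries (adjusted p of up to 0.026) and that of Ccr1 in the fit of the 6 libraries alone (adjusted p = 0.013).

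Ccr7 itself was abundant in both. It stood at 10129, 11902 and 11978 CPM in CD103+ and at 7902, 9865 and 9307 CPM in double-positive DCs (log2 fold change -0.33, SE 0.27, adjusted p = 0.43). Of 21 chemokines 2 were higher and 1 was lower, and without double-positive replicate 3 the numbers were 1 and 0. Ccl3 rose from 3.48, 2.40 and 4.69 CPM to 13.9, 21.3 and 28.0 CPM (2.58, SE 0.40). Ccl4 lost its call without 4 of the libraries (adjusted p of up to 0.020), which were double-positive replicates 2 and 3 and CD103+ replicates 1 and 2. Ccl5 had 4707 ± 895 CPM (SD, n = 3) in CD103+ and 2224 ± 318 in double-positive DCs, a difference whose call was lost without double-positive replicate 1 (adjusted p = 0.019) or 3 (0.027) or CD103+ replicate 3 (0.026). Ccl22 and Cxcl16, which attract T cells, had log2 fold changes of 0.06 (SE 0.26) and -0.07 (SE 0.16).

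Of 18 integrins 4 were higher (22.2%) and 1 was lower, against 4.69% and 1.84% of all genes tested. The 4 held Itgam, whose product CD11b is what the labels tell the subsets apart by, and the sort gene Itgax. Itgad, an alpha chain close to them, had a log2 fold change of 1.70. Itga5, the fibronectin receptor chain, stood at 53.0, 44.6 and 38.4 CPM in CD103+ and 104, 96.8 and 115 CPM in double-positive DCs. Itga5 was higher than in CD11b+ DCs too (1.21 against CD103+ and 1.61 against CD11b+ DCs). Itgb8, whose product with Itgav activates transforming growth factor beta, was the member that fell. It stood at 105, 120 and 124 CPM and at 21.5, 27.4 and 32.1 CPM, a 4.31-fold difference (log2 fold change -2.11, SE 0.29, adjusted p = 4.3e-05). CD11b+ DCs had 3.44 ± 0.399 CPM of it (SD, n = 3). Itgb2, the partner chain of CD11a and CD11b, had 0.87 (SE 0.15), under 2-fold.

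Receptors that sense microbes were among the rises. Of 28 pattern recognition genes 13 were higher and 2 lower, with a median log2 fold change of 1.19, and without double-positive replicate 3 the numbers were 10 and 1. Tlr1 and Nod1, which sense bacterial lipoprotein and peptidoglycan, had log2 fold changes of 1.28 and 1.97. Tlr5 and Nlrc4, which act on flagellin, had 3.21 and 3.58 at means of 3.02 and 3.95 CPM in double-positive DCs. Tmem173, which encodes STING, rose from 102, 85.2 and 89.3 CPM to 238, 235 and 247 CPM (1.38, SE 0.10). Clec4e had 0 counts in the CD103+ libraries and 89 in the double-positive libraries, at least 27.8-fold higher against 3 counts over the group. The 2 lower were Clec9a and Mrc1, and Mrc1 lost its call without any of the 6 libraries and under the replicate block (adjusted p from 0.011 to 0.034).

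Of 10 Fc receptor genes 4 were higher and 0 lower by edgeR (0 at an unadjusted p under 0.05, and 0 by DESeq2), which were Fcer1g, Fcgr3, Fcgr2b and Fcgr1. Fcgr3 had a log2 fold change of 3.10 (SE 0.42). The call of Fcgr2b was lost without double-positive replicate 2 or CD103+ replicate 3 (adjusted p = 0.012 in each). Of 22 interferon response genes 1 was higher and 1 lower, which is close to the share over all genes, with a median of -0.02. Oasl1, an inhibitor of interferon production, was 4.01-fold lower, from 215, 249 and 242 CPM to 45.9, 71.3 and 58.6 CPM (adjusted p = 1.7e-07). Oas1a, a sensor of double-stranded RNA, had 1.25 (SE 0.18).

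In the lists of T cell signals most genes were not called. Over all genes tested, 4.69% were higher and 1.84% lower. Of 20 B7 and checkpoint genes 2 (10%) were higher, Sirpa and Nectin2. Nectin2, a ligand of the receptors CD226 and PVRIG, stood at 11.8, 7.25 and 11.7 CPM in CD103+ and at 45.5, 35.1 and 46.0 CPM in double-positive DCs (log2 fold change 2.04, SE 0.34). Its relative Pvr was lower by -1.01 (SE 0.22), at the limit, and lost its call in 6 settings, among them total counts (-0.95) and leaving out double-positive replicate 1 (-0.84) or 2 (-0.98) or CD103+ replicate 1 (-0.93) or 3 (-0.86). In the Notch pathway 1 of 17 was higher and 1 lower. The share that was higher, 5.88%, is close to that over all genes. Dll4, a Notch ligand, rose from 10.4, 7.21 and 8.15 CPM to 39.8, 38.0 and 49.5 CPM (2.30, SE 0.47), with an adjusted p of 0.011 without CD103+ replicate 2. Jag2, another ligand, fell from 25.6, 29.8 and 25.4 CPM to 7.11, 5.65 and 8.60 CPM (-1.92, SE 0.21).

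Maturation and division did not separate the subsets beyond 2-fold. Of 21 DC maturation genes 0 were called by edgeR and 0 by DESeq2, with a median of -0.11, although 9 were lower and 4 higher at an unadjusted p under 0.05. Fscn1, the actin bundler of migratory DCs, stood at 8465, 6949 and 7514 CPM in CD103+ and at 5324, 3963 and 4495 CPM in double-positive DCs, without overlap but under 2-fold (log2 fold change -0.73, SE 0.19). Relb had 0.21 (SE 0.12) and Cd40 -0.29 (SE 0.12). Of 18 proliferation genes 0 were called by edgeR and 0 by DESeq2, with a median of -0.09 and 2 at an unadjusted p under 0.05.

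**Figure D4:**
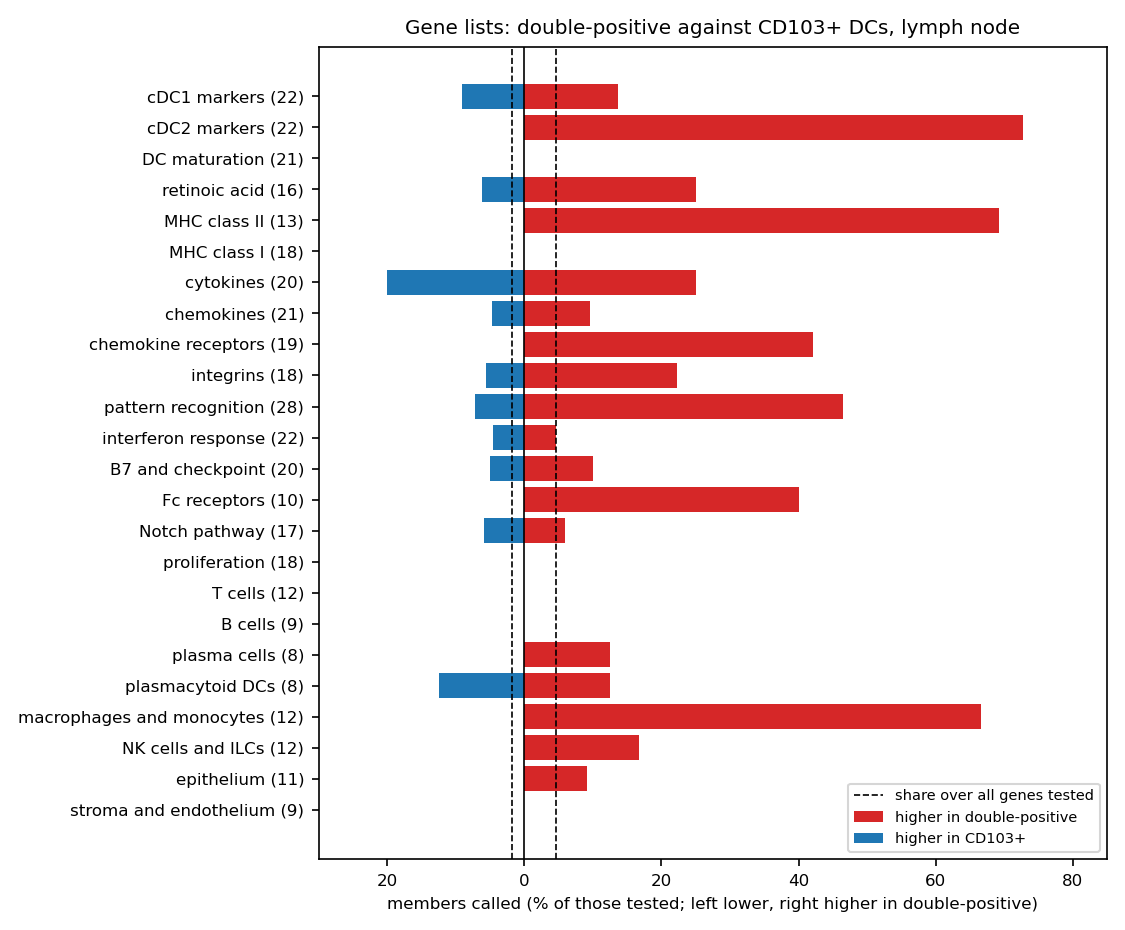
Share of each list's tested members (number in brackets) called higher (red, right) or lower (blue, left) in double-positive than in CD103+ DCs of lymph node, in percent, with dashed lines at the shares over all genes tested (4.69% and 1.84%). The cDC2, MHC class II and macrophage and monocyte lists reach furthest right, and the DC maturation, MHC class I, proliferation, T cell, B cell and stromal lists have no bar.

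Markers of other cells were read as a check. Of 12 genes of T cells and 9 of B cells edgeR called 0 and DESeq2 called 0 (0 and 1 at an unadjusted p under 0.05). The summed T cell level was 426 to 757 CPM in CD103+ and 357 to 607 CPM in double-positive libraries. The summed B cell level was 42.9 to 53.1 CPM in CD103+ and 60.2 to 72.6 CPM in double-positive libraries, without overlap. For plasma cells it was 949 to 1248 CPM and 955 to 2223 CPM. Of the B cell genes 8 of 9 had a log2 fold change above 0, and of the plasma cell genes 8 of 8. Of 9 stromal and endothelial genes 0 were called by edgeR and 1 by DESeq2 (2 at an unadjusted p under 0.05). Of 12 genes of NK cells and ILCs 2 were higher in double-positive DCs and 10 were not called. The median log2 fold change was 0.32, with 5 genes below 0. The 2 were the receptors Ncr1 and Klrb1c (log2 fold changes 2.55 and 3.14), while Gzma had -1.69 (SE 0.74, adjusted p = 0.11). The summed level of this list overlapped, at 417 to 577 CPM in CD103+ and 512 to 549 CPM in double-positive libraries. Siglech, of plasmacytoid DCs, rose from at most 0.506 CPM to 3.13, 6.81 and 4.18 CPM, and Ly6d of the same list was lower (-1.27) with its call lost in 5 settings, double-positive replicate 3 left out among them (-1.04). Prdm1 of the plasma cell list, which DCs also express, rose from 9.83, 7.89 and 5.96 CPM to 53.1, 49.6 and 51.6 CPM. Epcam, which intestinal DCs also express, had 57.6, 56.8 and 57.7 CPM in double-positive against 17.0, 21.7 and 18.5 CPM in CD103+ DCs, while no other epithelial gene was called. The part of such cells in the results was not tested.

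The same subsets of the lamina propria, from other libraries, were compared in the same fit to show where the lymph node differs. There 2326 genes were called (13.6%), 1383 higher in double-positive DCs (8.10%) and 943 lower (5.52%). Of the lymph node rises, 440 were called the same way in lamina propria, 54.9% of the lymph node and 31.8% of the lamina propria rises. Of the falls, 122 were, 38.9% and 12.9%. Lamina propria falls reached further, with 52.2% over 4-fold. The subset difference itself differed between the tissues for 1429 genes (8.37%) by the test of that difference (4.17% higher and 4.20% lower in lymph node than in lamina propria), and these held 229 (28.6%) of the lymph node rises and 111 (35.4%) of the falls. All lamina propria libraries carried Ddx3y and hardly any Xist, so tissue and the sex of the animals cannot be told apart.

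**Figure D5:**
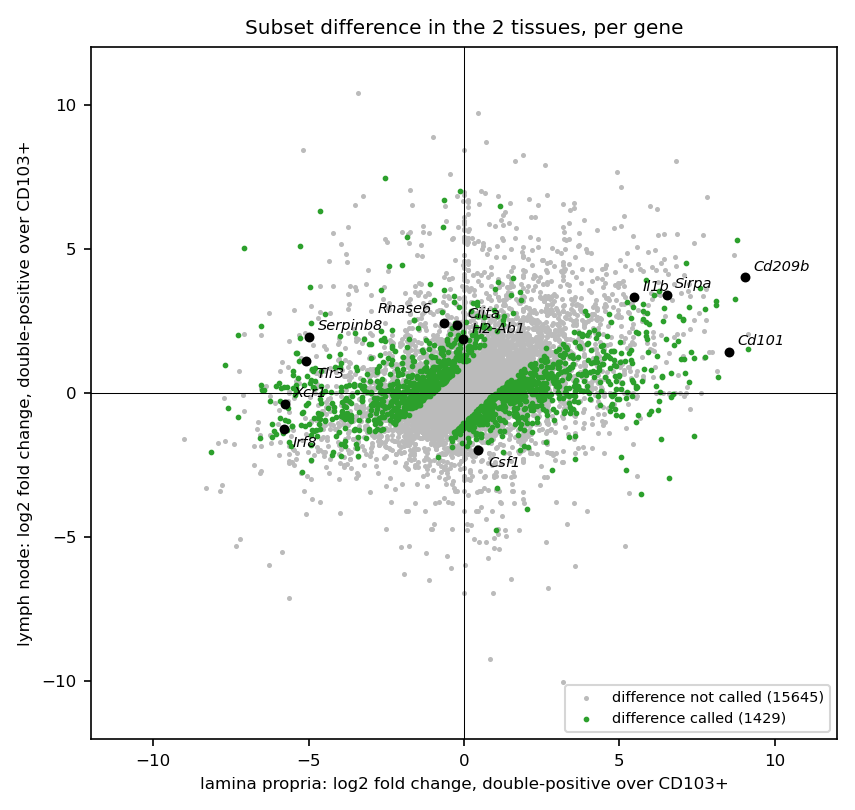
Log2 fold change of double-positive over CD103+ DCs per gene in lamina propria (horizontal) and lymph node (vertical), with the 1429 genes whose difference between tissues was called in green. Xcr1, Irf8 and Tlr3 lie far left, and on the lymph node axis they lie at -0.37, -1.23 and 1.10, where Irf8 and Tlr3 were called. Ciita, H2-Ab1 and Rnase6 lie near 0 on the lamina propria axis and above 0 on that of lymph node.

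The cDC1 markers differed most between the tissues. Of 22, 18 were lower in double-positive DCs of lamina propria, against 2 in lymph node, and for 19 the difference between tissues was called. Xcr1 was at a mean of 1400 CPM in lamina propria CD103+ and 25.7 CPM in double-positive DCs, against 97.6 and 75.5 CPM in lymph node (difference of log2 fold changes 5.39, SE 0.21, adjusted p = 4.7e-11). For Irf8 the difference was 4.57 (SE 0.13) and for Clec9a 4.40 (SE 0.32). Of the cDC2 markers 18 were higher and 2 lower in lamina propria, with a median log2 fold change of 4.21 against 2.01 in lymph node. Sirpa had a log2 fold change of 6.53 in lamina propria and 3.41 in lymph node (difference -3.13, SE 0.22), and of the 22 cDC2 markers the difference was called for 12, with 11 of them smaller in lymph node. Macrophage and monocyte markers differed for 1 of 12.

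The rise of class II genes was seen in lymph node. Of the 13, 4 were called in lamina propria, all higher, and the difference was called for 9, of which 7 were larger in lymph node. H2-Ab1 had means of 27792 CPM in lamina propria CD103+ and 27126 CPM in double-positive DCs (log2 fold change -0.03, SE 0.10), against 3582 and 12968 CPM in lymph node (difference 1.89, SE 0.14, adjusted p = 7.3e-08). Ciita had -0.22 (SE 0.17) in lamina propria (difference 2.59, SE 0.24). H2-DMb2 rose in both, with a difference of 0.23 (SE 0.18, adjusted p = 0.41). Oasl1 and Itgb8 fell in both, with differences of 0.07 (SE 0.23) and 0.08 (SE 0.43).

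Of the 17074 genes tested, 26 were called in opposite directions in the tissues. The difference was called for all 26, which follows from the opposite calls and adds no support. Serpinb8, a protease inhibitor, had a log2 fold change of 1.96 in lymph node and -4.98 in lamina propria, and was at no more than 2.00 CPM in each compared lymph node library. Nrg2, a growth factor of the neuregulin family, had 1.39 and -5.37, and its lymph node call was lost without CD103+ replicate 2 (adjusted p = 0.016). Tlr3 had 1.10 and -5.10, and its lymph node call was lost without double-positive replicate 3 or CD103+ replicate 3. Its means were 8.65 CPM in CD103+ and 18.6 CPM in double-positive DCs of lymph node, and 958 and 28 CPM in lamina propria. Tlr11 had 1.31 and -2.69. Pvr and Mrc1 went the other way, lower in lymph node and higher in lamina propria by 1.33 and 1.92. Their lymph node calls were lost in 6 and 7 of 12 settings. Mrc1 had means of 2.33 CPM in CD103+ and 0.657 CPM in double-positive DCs of lymph node, and of 0.478 and 1.73 CPM in lamina propria.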

How the data were processed

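Libraries were made with the Smart-seq v4 kit and sequenced on a HiSeq4000 as 75 bp reads, per the labels. The submitters' processing notes name FastQC 0.11.7, STAR 2.6 and GRCm38. How reads were assigned to genes, and whether strand was used, was not given in the sources used here. Antisense and overlapping genes may then share reads, and near-identical copies may lose or split them. The authors deposited raw counts per gene for 54232 Ensembl identifiers, of which 54079 were matched to symbols in GENCODE vM21.

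Counts were fitted with edgeR 4.0.16 (R 4.3.3) with TMM scaling, filterByExpr and a mean for each of the 6 groups in a single quasi-likelihood fit over all 18 libraries (17074 genes, 12 residual degrees of freedom). P-values were adjusted by Benjamini-Hochberg over all genes. Standard errors were derived from the F statistic. CPM used TMM-scaled library sizes and is not scaled for gene length, so levels were compared between libraries and not between genes. The members and all lists were chosen with earlier results of these data known. Genes named were Itgal, the sort genes, the 12 largest rises and falls (called, no Gm or Rik model, libraries of the groups not overlapping, a mean of 10 CPM or more where higher), the 10 smallest p, the 8 called genes with the largest difference between tissues (at least 10 CPM in 1 of the 4 groups), list members and sex-linked genes. Opposite-direction genes were named after their values were seen. Some genes that met the rule are not reported here.

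Other settings tried were size factors of DESeq2, scaling by total counts, all genes kept, only genes with 100 counts or more in 3 libraries, a threshold of 0.05 for the adjusted p, the test of DESeq2 1.42.0, the replicate number as a block, the compared libraries alone, each library left out, and no genes of the X and Y chromosomes. Same-numbered libraries deviated together in lamina propria (r = 0.14, 0.11 and 0.18), which meets the limit of 0.1 and rests on the data alone.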

Additional observations from a re-analysis of the deposited data

Results flagged for a closer look

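The difference between double-positive and CD103+ DCs was itself tested between the tissues, and it differed for 1429 genes. Genes of the naming rule for which it differed follow, given as the log2 fold change in lymph node minus that in lamina propria.

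For some named genes the rise was smaller in lymph node, so the difference was below 0. It was -3.13 for Sirpa, -2.72 for Itgam, -2.78 for Fcer1g, -2.64 for Cd33, -1.95 for Cd300a, -5.02 for Cd209b, -5.86 for Cd209a and -7.08 for Cd101. Cd101, an inhibitory surface protein, stood at 8.09, 5.27 and 5.89 CPM in lymph node double-positive DCs and at 262, 253 and 307 CPM in those of lamina propria. Gp2, a receptor for bacterial fimbriae, had -5.46, although its lymph node call was lost without any of the 6 libraries (adjusted p from 0.015 to 0.036 in edgeR's test). Txndc17 had -1.39, with a larger fall in lymph node.

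For other genes the difference was above 0. It was 3.07 for Rnase6, 2.19 for Jaml, 1.45 for Gnl2, 1.43 for Asrgl1 and 1.19 for Sulf2. Rnase6 was lower in double-positive DCs of lamina propria by a log2 fold change of -0.64. Tlr3 had 6.19, Serpinb8 6.94 and Nrg2 6.76. Serpinb2 had 6.44, which depends on the prior count, since the lymph node CD103+ libraries held 0 counts of it and the double-positive libraries 17 in all, at least 5.32-fold higher against 3 counts over the group. The falls of Cpne8 (2.47) and Arhgap42 (2.61) were smaller in lymph node. The tissues also differed in sex-linked genes, although lymph node double-positive replicate 3 held 52.2 CPM of Ddx3y. The effects of tissue and sex cannot be told apart.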

How the results depend on the processing

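Of 147 alternative values of the counts of called genes, 147 stayed within 1.5 times the value reported. With each library left out, the lymph node count lay between 916 and 1016 (667 to 737 higher, 231 to 279 lower), the lamina propria count between 2094 and 2166 (1207 to 1310 higher, 845 to 887 lower) and the count of the difference between tissues between 1263 and 1346 (632 to 712 higher, 620 to 677 lower). In lymph node DESeq2 called 1359 genes, the fit of the 6 libraries 1199, no filter on low counts 1168, a minimum of 100 counts in 3 libraries 1019 and an adjusted p under 0.05 gave 1580. Leaving out the X and Y chromosomes left 1086. Total counts moved the split to 857 higher and 259 lower and the median of all genes to 0.08. Same-numbered lymph node libraries deviated together little (r = 0.02, 0.05 and 0.02), which cannot show whether they came from the same animals. The replicate block gave 1146 genes in lymph node, 2325 in lamina propria and 1491 for the difference. The block changed 2 calls of named genes, Mrc1 and Ly6d. Of 123 called genes among those of the naming rule and lists, 94 kept their call in every setting run for them, 29 lost it in some, and 0 reversed. CD103+ libraries hold under 1 CPM of Itgam, Clec4e and other genes, so their folds rest on few counts.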
